A study of Caenorhabditis elegans with 2 samples.

Results

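Homeobox genes encode transcription factors with a homeodomain, a helical fold that binds short AT-rich DNA sites. In Caenorhabditis elegans many of them fix the identity of neurons, and others pattern the embryo, the pharynx or the gonad. LIN-40 belongs to the MTA proteins, components of the NuRD complex, which joins nucleosome remodelling to histone deacetylation, and in worms it is known for roles in embryonic patterning and vulval development. The genes described here, the members, are homeobox genes outside the Hox cluster, though not all of them. Below, the homeobox genes means this set unless others are named. The members were taken from the annotation by symbol, as protein-coding genes named ceh (C. elegans homeobox) other than the Hox gene ceh-13, together with 11 genes with older names. The rule gave 73 of the 19973 protein-coding genes of the nuclear chromosomes, 62 of them by the ceh symbol. No measured value enters this rule, but the set was chosen with earlier results of these data known.

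The series is chromatin immunoprecipitation sequencing (ChIP-seq) from whole hermaphrodites of strain OP485, harvested as young adults 57.25 hours after growth was synchronized from starved first-stage larvae. The worms, 1 transgenic line, stably express LIN-40 with GFP and FLAG at its C terminus, and the antibody was against GFP. There is 1 group with 2 biological replicates, numbered 3 and 4, so nothing could be compared between conditions and no test was made. Whole worms mix all tissues, so strong occupancy in few cells and weak occupancy in many cannot be told apart. A region is placed by its summit, the position of highest signal. A promoter summit falls in a window that begins 1000 bp before a transcript start of a gene and ends 200 bp after it. The IDR list holds the 3066 regions that passed the authors' irreproducible discovery rate threshold, which are also the 3066 strongest of the pooled list, and its lowest signal is 99.97. The pooled list holds 30000 regions, background included, down to a signal of 8.94, and each replicate has a list of 30000 of its own. Signal is the authors' peak caller value, with no stated scale. Across IDR regions the pooled signal was 0.99 times the sum of the values of the replicates (median), so a replicate value near 50% of the pooled one is what the scale gives. Read depth is unknown, since the lists hold no counts.

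The sequences below are the 201 bases centred on the summit, read from the plus strand of WBcel235 (ce11), at ceh-38, ceh-99, ceh-20 and ceh-48, which had an IDR summit at or upstream of a start, and at unc-42, whose promoter summit was the strongest below the IDR list. The IDR summit upstream of ceh-5, described later, is not shown. Capitals mark any of 4 motifs searched on both strands: TAATTA (a homeodomain site), GAGAGA, CTGCGTCT (a core promoter motif) and CACGTG (the E-box). None of the 4 motifs overlaps another here.
ceh-38 (chrII:6951467-6951667): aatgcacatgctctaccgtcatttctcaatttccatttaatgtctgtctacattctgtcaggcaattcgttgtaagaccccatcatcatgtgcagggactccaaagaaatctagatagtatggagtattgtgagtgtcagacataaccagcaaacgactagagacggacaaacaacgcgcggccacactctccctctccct
ceh-99, outer summit (chrII:12518945-12519145): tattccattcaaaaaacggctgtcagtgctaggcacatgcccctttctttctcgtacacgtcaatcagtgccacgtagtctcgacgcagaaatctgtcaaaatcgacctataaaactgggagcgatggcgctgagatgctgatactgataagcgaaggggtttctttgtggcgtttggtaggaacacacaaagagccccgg
ceh-99, inner summit (chrII:12519174-12519374): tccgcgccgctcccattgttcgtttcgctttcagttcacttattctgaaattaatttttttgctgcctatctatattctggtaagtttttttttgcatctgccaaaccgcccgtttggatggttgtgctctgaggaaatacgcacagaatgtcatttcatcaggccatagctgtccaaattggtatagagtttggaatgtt
ceh-20 (chrIII:6978997-6979197): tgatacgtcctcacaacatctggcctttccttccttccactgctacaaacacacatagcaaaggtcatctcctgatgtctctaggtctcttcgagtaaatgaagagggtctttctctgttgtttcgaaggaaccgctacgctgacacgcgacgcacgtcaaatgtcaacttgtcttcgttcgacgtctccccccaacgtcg
ceh-48 (chrIV:6809887-6810087): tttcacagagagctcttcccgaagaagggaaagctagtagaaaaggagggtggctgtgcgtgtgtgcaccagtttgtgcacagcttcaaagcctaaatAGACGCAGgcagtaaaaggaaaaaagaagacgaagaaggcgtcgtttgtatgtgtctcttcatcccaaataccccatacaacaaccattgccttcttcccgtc
unc-42 (chrV:9769422-9769622): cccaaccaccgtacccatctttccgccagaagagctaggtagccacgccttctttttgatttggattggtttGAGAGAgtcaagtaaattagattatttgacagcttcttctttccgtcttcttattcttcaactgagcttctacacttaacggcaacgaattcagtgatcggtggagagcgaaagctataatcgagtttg

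The sequences of ceh-38, ceh-20 and both summits of ceh-99 held no match to any of the 4 motifs. Over all 3066 IDR summits, GAGAGA was present in 41.3% of such windows, CTGCGTCT in 13.3%, CACGTG in 10.3% and TAATTA in 4.83%. The window upstream of ceh-48 holds CTGCGTCT on the minus strand, and that of unc-42 holds GAGAGA. The GC content was 45.3% at ceh-38, 48.8% and 41.3% at the outer and inner summits of ceh-99, 49.8% at ceh-20, 47.3% at ceh-48 and 43.3% at unc-42, against a median of 42.8% over all IDR summits. At the IDR summit upstream of ceh-5, not shown above, it was 38.8%. A match here is a run of letters and not a measured binding site.

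Promoter windows of homeobox genes rarely held a summit of the IDR list. Of the 73 genes, 3 had one (4.11%, exact 95% interval 0.856 to 11.5), against 9.91% of all protein-coding genes. They were ceh-38, ceh-99 and ceh-20. The intervals given here are Clopper-Pearson intervals over genes and cover counting error only. With the much longer pooled list, 15 of the 73 had a summit (20.5%, interval 12 to 31.6), against 30.9% of all protein-coding genes. The share was below that of all genes in both lists; no test of this difference was made, and the interval of each share includes the value over all genes.

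The 3066 strongest regions of each replicate gave the same order of size. Replicate 3 placed a promoter summit at 5 members (6.85%), against 9.98% of all protein-coding genes. Replicate 4 placed one at 4 members (5.48%), against 9.9%. Both replicates had ceh-38, ceh-99 and ceh-20. Replicate 3 added ceh-5 and ceh-39, and replicate 4 added unc-42.

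Among transcription factor genes outside this set the values were scattered around these. Of 23 other homeobox genes without a ceh name, 0 had an IDR promoter summit and 4 a pooled one. Of the 6 Hox cluster genes, 0 had an IDR and 1 a pooled promoter summit. Of 28 genes for basic helix-loop-helix factors, which include proneural and muscle regulators, 2 had an IDR summit (hlh-11 and hlh-30) and 3 a pooled one. Of 269 nuclear hormone receptor genes, 27 (10%) had an IDR summit and 93 (34.6%) a pooled one, near the shares of all protein-coding genes. The exact intervals of the homeobox and nuclear hormone receptor shares overlap in both lists. Such overlap does not show that the shares are alike, and the difference was not tested.

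**Figure D1:**
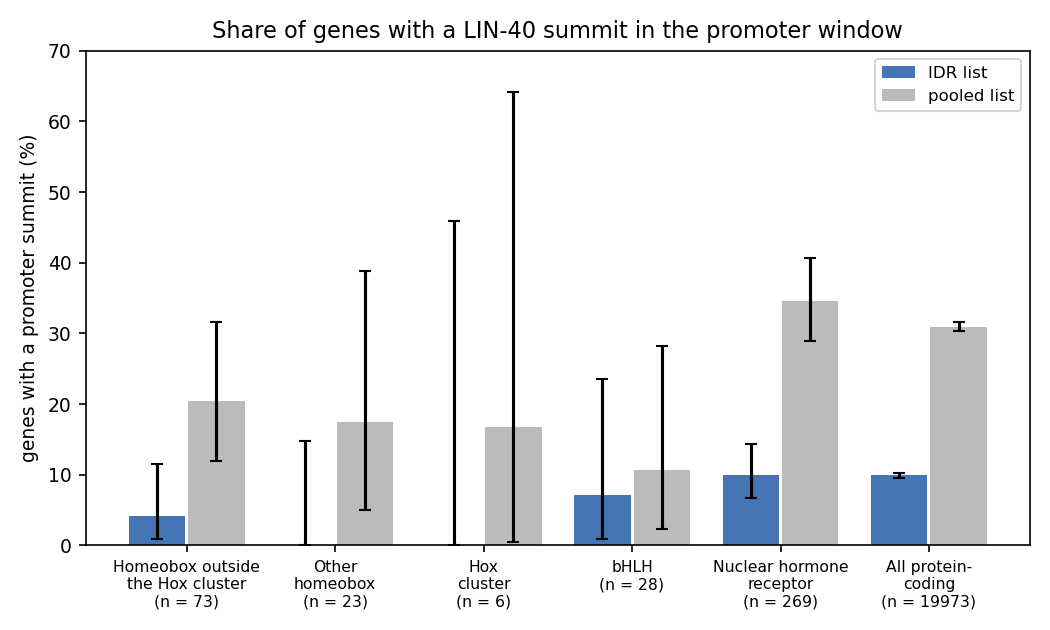
Share of genes (%) with a promoter summit in the IDR list (blue) and in the pooled list (grey) for each gene list; error bars are exact 95% intervals over genes. The homeobox genes outside the Hox cluster stand at 4.11% and 20.5%, against 9.91% and 30.9% of all protein-coding genes.

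The strongest summit was at ceh-38, a ONECUT factor of the CUT class (WBGene00000459, II 6951526 to 6955409, plus strand, 11 annotated starts). The region II 6951326 to 6951796 had a signal of 446.6 in the pooled list, where it ranked 233. It had 198.1 in replicate 3 and 250.7 in replicate 4, ranks 272 and 216 of their own lists. Both replicates therefore placed it well inside their strongest 3066. Its summit lay 41 bp downstream of the nearest start of ceh-38, and at -267 bp from malt-1, a paracaspase gene on the opposite strand, so the region counts for both genes. A second summit in the same interval, 111 bp downstream of a start, had a pooled signal of 77.69. It was uneven between replicates, with 11.61 in replicate 3 and 78.62 in replicate 4.

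The region at ceh-20 was the only other IDR promoter region whose nearest protein-coding start was that of a homeobox gene. CEH-20 is a PBC-type TALE factor, the worm counterpart of Extradenticle and Pbx, and binds DNA together with Hox proteins. The gene lies at III 6979884 to 6981785 on the plus strand. The region III 6978865 to 6979328 had a pooled signal of 123.8 (rank 2296), with 58.29 in replicate 3 and 67.1 in replicate 4. Its summit lay at -787 bp from the start (minus for upstream), and no other protein-coding gene had it in its window. The replicates differed little in signal and in summit position, which was shifted by 34 bp in replicate 3 and by -20 bp in replicate 4.

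The summits counted for ceh-99 lay closer to other genes. The gene is at II 12519981 to 12524478 on the plus strand, and the summits were at -936 and -707 bp from its start. The outer one had a pooled signal of 159.8, with 70.42 in replicate 3 and 88.05 in replicate 4. The inner one had 120.3, with 56.16 in replicate 3 and 63.26 in replicate 4. Both replicates held both summits among their strongest 3066. The nearest protein-coding start was that of the chemoreceptor gene srh-70 on the opposite strand, at -186 and -415 bp. The microRNA gene mir-77 and the snoRNA gene T21B4.20 start within 300 bp of both, and the inner summit falls inside mir-77. Given to the nearest start alone, these summits left ceh-20 and ceh-38 as the only members with one.

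**Figure D2:**
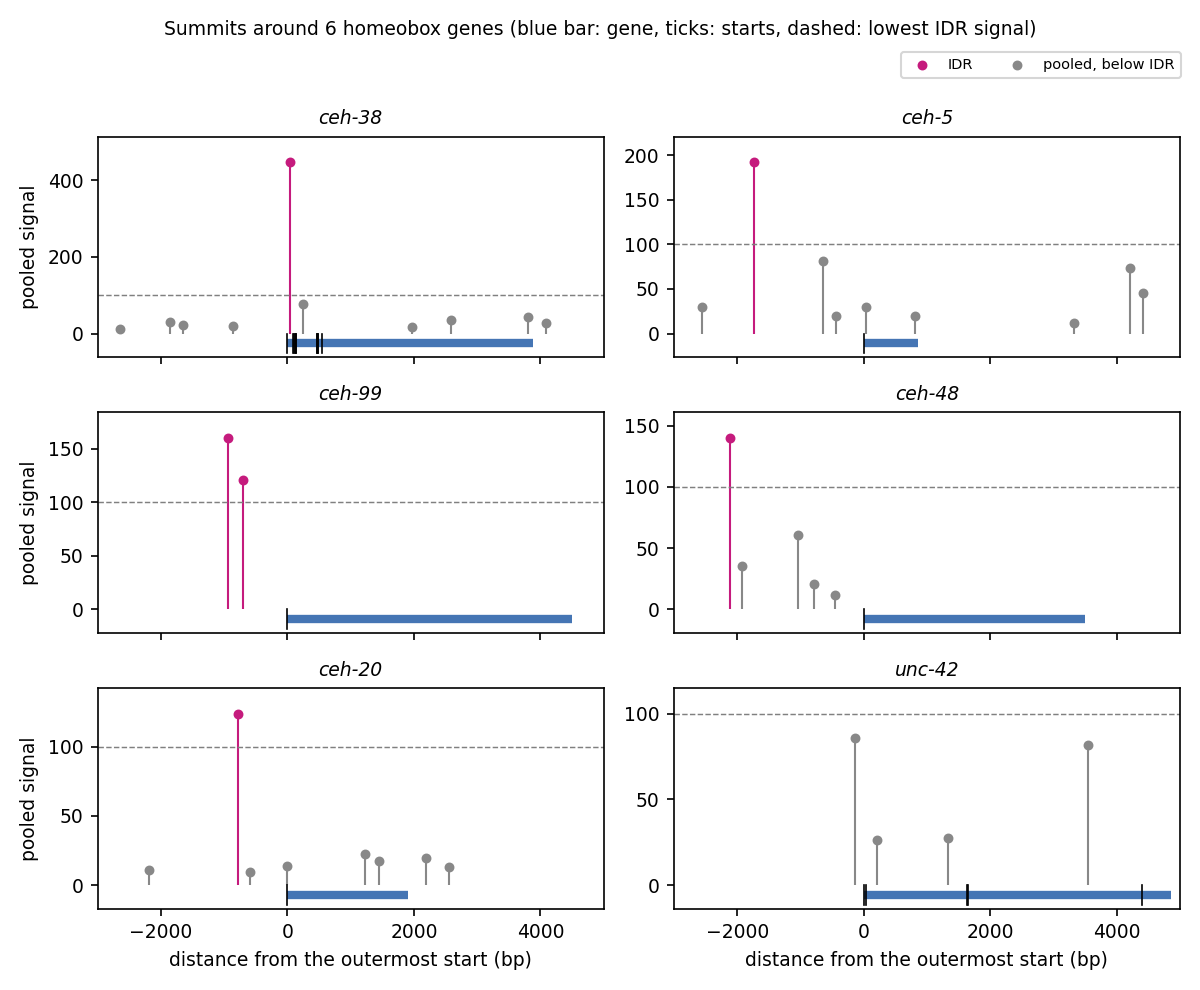
Pooled-list summits around 6 homeobox genes: distance from the outermost start in bp (x, negative upstream) against pooled signal (y). Summits of the IDR list are in magenta, weaker ones in grey, the blue bar is the gene, black ticks are annotated starts and the dashed line is the lowest IDR signal, 99.97. At ceh-38 one summit stands at the start, at ceh-99, ceh-20, ceh-5 and ceh-48 the IDR summits are upstream, and at unc-42 no summit reaches the line.

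A pair of further members had an IDR summit beyond the window, upstream of their start and nearer to it than to any other protein-coding start. Upstream of ceh-5, an NK-like gene related to vertebrate VAX genes, a region on I from 9725276 to 9725574 had a pooled signal of 192, with 78.87 in replicate 3 and 116.8 in replicate 4. Its summit was at -1739 bp from ceh-5 but inside the overlapping genes eat-16 and ocrl-1, a G-protein signalling regulator and a phosphoinositide phosphatase. Upstream of ceh-48, another ONECUT gene, the region IV 6809755 to 6810218 had a signal of 140. Its summit lay at -2121 bp, within 300 bp of the start of the non-coding RNA gene C17H12.31. The replicates differed at ceh-48, with 44.45 in replicate 3 (rank 3607, outside its strongest 3066) and 96.18 in replicate 4 (rank 1436). In all, 4 IDR summits had a member's start as the nearest protein-coding start, at ceh-38, ceh-20, ceh-5 and ceh-48. They make 0.13% of the IDR list, while the members are 0.365% of protein-coding genes.

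Just below the threshold stood unc-42, a paired-like gene that sets the identity of command interneurons and their motor circuit partners. It had 4 pooled promoter summits along its 5 starts (V 9764534 to 9769391, minus strand). The strongest, at -131 bp from a start and inside the non-coding RNA gene F46B6.18, had a pooled signal of 85.64 (rank 3722), with 20.42 in replicate 3 and 63.99 in replicate 4. The replicates disagreed there: it was among the strongest 3066 of replicate 4 and at rank 9698 in replicate 3. A summit at -847 bp from an inner start, inside the gene, had 81.64, with 38.03 in replicate 3 and 48.06 in replicate 4.

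The next promoter summits were weaker, between 80.82 and 19.76. In its promoter window, and inside ocrl-1, ceh-5 had a summit of 80.82, with 59.39 in replicate 3. In replicate 4 the region counted for it had 22.55 and a summit shifted by 123 bp. That region also counted for a weaker ceh-5 promoter summit (20.05 in the pooled list), to which it lay nearer (-85 bp). The PBC gene ceh-60, a regulator of yolk protein genes, had 66.17 in the pooled list, 34.83 in replicate 3 and 32 in replicate 4. Next, ceh-93 had 65.06, with 31.91 in replicate 3 and 31.94 in replicate 4. These last values were near equal between replicates, unlike those at ceh-5. The Distal-less gene ceh-43 had 62.98, with 24.38 in replicate 3 and 35.86 in replicate 4, at a summit within 300 bp of a tRNA start. Then ceh-58 had 40.1, with 25.86 in replicate 3, while its strongest promoter summit in replicate 4, away from this one, had 18.14.
The other 6 members with a pooled promoter summit were vab-3, ceh-89, ceh-33, ceh-63, ceh-48 and ceh-18, from 40.08 down to 19.76. Over the 15 members with a pooled promoter summit the strongest one had a median of 63, against 58.8 over the 6174 protein-coding genes that had one; both figures leave out every gene without a summit.

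Some members had a promoter region in a single sample. In replicate 3, ceh-39 had a signal of 51.75 (rank 2941) at -204 bp from its start. CEH-39 is a ONECUT factor known as an X-linked signal element, which represses the sex-determination switch gene xol-1. Neither replicate 4 nor the pooled list had a promoter summit at ceh-39. Replicate 3 also had 2 at ceh-7 (the stronger 7.62), and replicate 4 had one at ceh-57 (22.48). Among members with a pooled promoter summit, ceh-63 had none in replicate 4 and ceh-89 had none in replicate 3. With ceh-39, ceh-7 and ceh-57, 18 members had a promoter summit in at least 1 list, 13 had one in both replicates, and 55 had none in any. These counts are not given over all protein-coding genes, of which 30.9% had a pooled promoter summit.

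**Figure D3:**
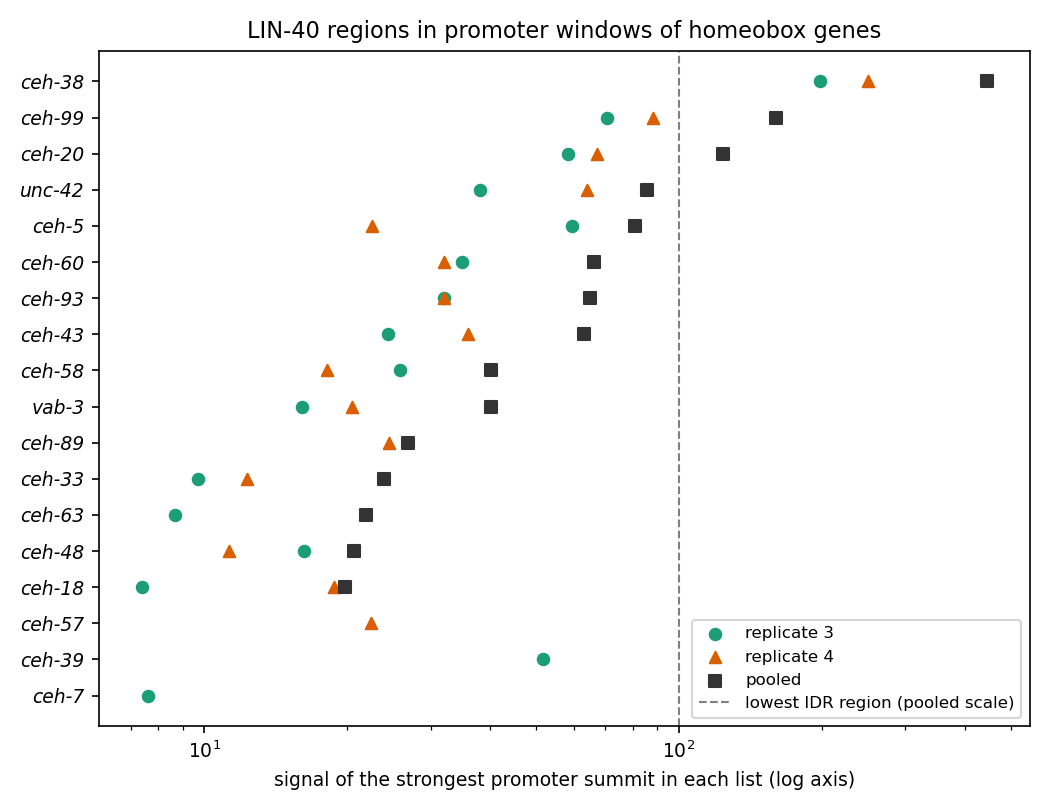
Signal (log axis) of the strongest promoter summit of each of the 18 members with one, in replicate 3 (circles), replicate 4 (triangles) and the pooled list (squares); each list has its own strongest summit, which may be a different one, a missing mark means no promoter summit in that list, and the circle and triangle of ceh-93 coincide. The dashed line is the lowest IDR signal, 99.97, for the pooled squares; ceh-38, ceh-99 and ceh-20 lie to its right.

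The replicates varied in how they placed and scaled these summits. The pooled list held 30 promoter summits at members, of which 17 had a counterpart within 150 bp in both replicates, 6 in replicate 3 alone and 5 in replicate 4 alone. A replicate region could count for more than 1 pooled summit, as at ceh-5. Over those 17, the log2 ratio of replicate 4 to replicate 3 had a median of 0.34 and an SD of 0.90 across summits, with 13 higher in replicate 4. Over the IDR regions, which are stronger, the median was 0.20 and the SD 0.46, and 3000 of the 3066 had a region in both replicates. The same values over all pooled promoter summits are not given here. All but 4 of the 30 summits were below the lowest IDR signal. The 4 in the IDR list were among the strongest 3066 regions of both replicates, which the IDR filter favours.

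The genes named for mutants, whose products are among the best known neuronal and patterning regulators, had few regions at their promoters, as did the members as a whole. Of these 11, 0 had an IDR promoter summit, against 9.91% of all protein-coding genes, and 2 had a pooled one (unc-42 and vab-3), against 30.9%. The other 9 had none in any list, as had 55 of all 73 members. That count is not given over all protein-coding genes, most of which also had no pooled promoter summit. Lack of a region therefore does not set these 9 apart. The 9 were unc-86, a POU factor of touch neurons and many other neurons, and mec-3, its LIM partner in touch neurons. They also included lin-11, a LIM factor of vulval cells and neurons, and ttx-3, a LIM factor of the AIY interneuron. Further, unc-4 (motor neuron connectivity), unc-30 (GABAergic motor neurons), ttx-1 (the AFD thermosensory neuron), vab-7 (an even-skipped gene) and pal-1 (a caudal gene of posterior embryonic fate) had none. The nearest IDR summit lay 11375 bp from a start of unc-86, 20037 bp from mec-3, 12953 bp from lin-11, 10131 bp from ttx-3 and 33693 bp from unc-4. It lay 9056 bp from unc-30, 53779 bp from ttx-1, 14993 bp from vab-7, 11907 bp from pal-1, 17287 bp from unc-42 and 8679 bp from vab-3. No IDR summit therefore lay within 8 kb of a start of any of the 11. Distances to the other end of a gene can be shorter. For vab-3, the worm Pax6 gene, the promoter summit of 40.08 (X 10514857 to 10515320) had 16.04 in replicate 3 and 20.46 in replicate 4. It lay at -335 bp from an inner start, inside the gene. With the outermost start alone, vab-3 had no pooled promoter summit.

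Introns of the homeobox genes held no IDR summit. All 73 members have an intron, and 0 had an IDR summit in one outside a promoter window, against 2% of the 19287 protein-coding genes with an intron. From the pooled list 8 members had one (11%), against 16.1%. Those 8 members held 23 such summits, 7 each at ceh-18 and vab-3, 3 at lin-11, 2 at ceh-43, and 1 each at ceh-20, ceh-32, ceh-38 and ceh-60. The strongest was at ceh-43, with 70.82 in the pooled list, 42.81 in replicate 3 and 27.88 in replicate 4, within 300 bp of a tRNA start. That of lin-11 had 59.21 in the pooled list, 23.38 in replicate 3 and 31.88 in replicate 4, and lay 4681 bp downstream of the start. At ceh-18, a POU gene that acts in the gonadal sheath in oocyte control, the strongest had 50.63, with 23.83 in replicate 3 and 28.58 in replicate 4. Per length of intron, promoter windows included, the members held 159 pooled summits per Mb, against 330 over all protein-coding genes.

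Members were spread over the known homeodomain classes, and the counts per class were too small to compare. Over all protein-coding genes, 9.91% had an IDR and 30.9% a pooled promoter summit. The 50 members that could be classed fall in 8 classes. Of 6 CUT genes, 1 had an IDR and 2 a pooled promoter summit, and of 3 TALE genes likewise 1 and 2. Of 13 paired and paired-like genes, 0 had an IDR and 2 a pooled one. Of 15 NK-like genes, 0 had an IDR and 2 a pooled one (ceh-5 and ceh-43). Of the 3 POU genes and of the 3 sine oculis-type genes, 1 each had a pooled promoter summit (ceh-18 and ceh-33). The 4 LIM genes and the 3 caudal, even-skipped and Mnx genes had no promoter summit. Of the 23 genes not classed here, 1 had an IDR promoter summit (ceh-99) and 5 had a pooled one.

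By chromosome, the members with an IDR promoter summit were on II (2 of 14, against 8.44% of all protein-coding genes there) and III (1 of 10, against 14.2%). None of the members on the other chromosomes had one, which were 9 on I, 6 on IV, 14 on V and 20 on X, against 12.3%, 9.48%, 6.69% and 11.5% of all protein-coding genes on I, IV, V and X. On X, which carries most members, 6 of the 20 had a pooled promoter summit, against 36.1% of all protein-coding genes there.

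The homeobox genes had longer gaps and introns than the typical gene; these values are medians and were not tested. The gap upstream ran to the next protein-coding gene that does not overlap the gene itself. Its median was 2685 bp (quartiles 994 and 5993), against 1156 bp (449 and 3221) over all protein-coding genes. Introns of the members summed to a median of 1508 bp, against 722 bp. In the window of 1000 and 200 bp at the outermost start, GAGAGA was present in 60.3% of members, against 50.9% of all protein-coding genes and 64.1% of those with an IDR promoter summit. CTGCGTCT was present in 8.22%, against 8.63% and 16.9%. CACGTG was present in 13.7%, against 18.4% and 22.7%. TAATTA was present in 38.4%, against 47.3% and 47.8%. The median GC content of these windows was 36.4%, against 35% and 36.6%.

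IDR summits were sparse near the homeobox genes at short range and not at long range. Within 5000 bp of a start, 9.59% of members had an IDR summit, against 24.8% of all protein-coding genes. Within 10000 bp the shares were 21.9% and 37.5%. Within 50000 bp they were 87.7% and 80.4%. The median distance to the nearest IDR summit was 17609 bp for members and 16479 bp for all protein-coding genes. The members farthest from one were ceh-81, ceh-82, ceh-83, ceh-84 and ceh-87 on II, all over 100000 bp away, with ceh-84 at 454140 bp.

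**Figure D4:**
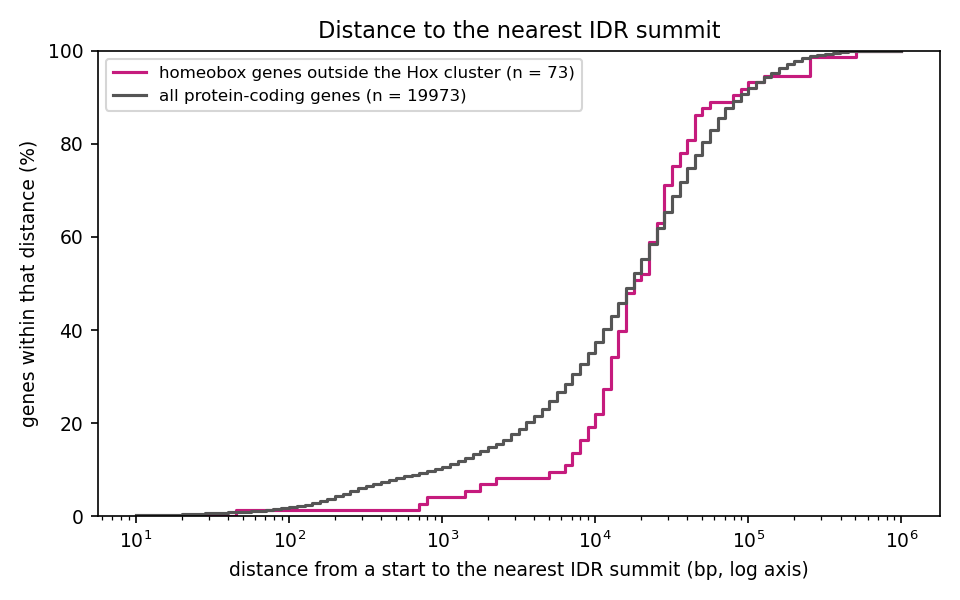
Cumulative share of genes (%) by distance from a start to the nearest IDR summit (bp, log axis), for the 73 homeobox genes outside the Hox cluster (magenta) and all 19973 protein-coding genes (grey). The magenta curve runs below the grey one at 5000 bp (9.59% and 24.8%) and above it at 50000 bp (87.7% and 80.4%).

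Around each gene, a space was taken from the end of the preceding protein-coding gene to the start of the following one. Genes that overlap the gene itself were passed over, so the space can include parts of them. It held 15 IDR summits at 14 members (19.2%), against 21.6% of all protein-coding genes with one, so the shares of genes were close. A pooled summit was present in this space at 28 members (38.4%), against 45.8% of all protein-coding genes. The space is longer around the members, with a median of 8492 bp against 6039 bp. Per Mb of it there were 19.2 IDR summits, against 30.6 over all protein-coding genes, and 210 pooled summits, against 299. The spaces of all protein-coding genes together cover the whole genome, so 30.6 and 299 are the genome-wide densities. Of the 15 summits, 4 were the promoter summits above, 4 lay farther upstream, 2 inside a member and 5 beyond its end. A member's start was the nearest protein-coding start for 3 of them, those at ceh-20, ceh-38 and ceh-48. The others were nearest to a neighbour, such as the one at -219 bp from emb-4 in the space of ceh-51 and another at -225 bp from ife-2 in the space of ceh-93. A summit between neighbouring genes falls in the space of each, and the matching share over all protein-coding genes is not given. The summits inside members lay in exons of ceh-8 (signal 197.6, at -644 bp from col-63) and ceh-60 (105.3, at 7312 bp from its start).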

How the data were processed

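The starting point was the authors' deposited region lists on build ce11, in 1 group of 2 samples, with 1 list for each sample, 1 for both together and 1 after an IDR threshold, per the labels and file listings. Control libraries, which the labels mention, were not analysed here. The sources used here do not name the caller, the aligner or the threshold. Each region has a signal value, a −log10 q-value and a summit offset, deposited by the authors. Only signal was used to rank regions; the −log10 q-value was 4.13 for every IDR region. Of the ce10 lists only the length of the IDR list was used.

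Summits (column 2 plus column 10) were placed on WBcel235, the same assembly as ce11, with the annotation of Ensembl release 115. Promoter windows began 1000 bp before a transcript start and ended 200 bp after it. An intron lay inside a transcript and in no exon of its gene, and promoter summits were not counted as intronic. A replicate counterpart overlapped by at least 1 bp and had its summit within 150 bp. Placing was tested on planted summits. Python 3.11.15, pandas 2.3.3, NumPy 2.4.6 and SciPy 1.17.1 were used.

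The members, lists, classes and motifs were chosen with earlier results of these data known, so counts are descriptions. Genes named are those with an IDR summit in the window, in an intron or within 10000 bp upstream where theirs was the nearest start, the 5 next strongest promoter summits, the 11 genes named in the rule, and genes sharing a summit; ceh-39, ceh-7, ceh-57, the spaces around genes and other examples were chosen after their values were seen.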

Additional observations from a re-analysis of the deposited data

How the results depend on the processing

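Of 49 values under other settings, 32 kept their size and 17 moved. The count of members with an IDR promoter summit, 3, was 1 with the window of 500 and 100 bp and 1 with the stronger 50% of the IDR regions (ceh-38 each time), and 5 with as many pooled regions as the ce10 IDR list holds (with ceh-5 and unc-42). With 1 replicate left out it was 4 to 5. It was 4 with the window of 2000 and 200 bp, where ceh-5 joined. The share over all protein-coding genes was 7.81% with the window of 500 and 100 bp, 12.9% with that of 2000 and 200 bp, 9.12% with the outermost start, 7.66% with the nearest start, 10.7% with any overlap of the region, 5.81% with the stronger 50% and 13.4% with the ce10 number. Under each of these settings the members' share stayed below it. The count with a pooled promoter summit ran from 12 to 16 around 15. The median of their strongest signal, 63, was 35.2 with the window of 500 and 100 bp and 51.5 with the nearest start. It was 24.5 to 28.9 with 1 replicate left out, where the signal of a single sample is on a lower scale by construction. The count of members with an IDR summit in an intron, 0, became 1 (ceh-60) when any overlap of the region counted. Within 200 bp in place of 100 bp, 1 of the 4 IDR promoter summits held CTGCGTCT, at ceh-20. No paired analysis was possible because there is 1 group. With no counts in the lists, depth is unknown, and a gene without a region is below the listed signal and not shown to lack LIN-40.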
